A study of Mus musculus with 12 samples.

Results

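The genes described here are 35 mouse genes that burn fatty acids or that respond to PPAR alpha, the nuclear receptor of the fasting liver. They were chosen by name, with earlier results of these data known, and grouped by role. Of the 35, 34 had a probe set among the 11861 genes measured, since Acsl1, an acyl-CoA synthetase, had no named probe set among those used here. They were measured in spheroids, the round aggregates that liver cells form when they cannot attach to a plate. The hepatocytes came from C57BL/6 mice, an inbred strain, with no genetic change or drug named in the labels and no age given in the sources used here. The 12 mice were frozen as 4 preparations, called male 1, male 2, female 1 and female 2, each a pool of cells from 3 animals. RNA of each preparation was read on expression arrays at days 1, 7 and 14 after its spheroids had formed, which gave 6 groups of sex and day with 2 arrays each. The comparisons are between the days of culture and between male and female pools.

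In the liver, fatty acids enter the cell, are bound by carrier proteins and are joined to coenzyme A. Long chains reach the mitochondrial matrix through the carnitine shuttle and are then shortened step by step by acyl-CoA dehydrogenases, hydratases, hydroxyacyl-CoA dehydrogenases and thiolases, while very long chains are first shortened in peroxisomes and some chains are oxidised from the other end by cytochromes of the Cyp4a family. PPAR alpha pairs with the retinoid X receptor on direct repeats of a short DNA half-site and raises many of these genes when fatty acids flow into the liver during fasting. Several of its targets, such as Cyp4a10, Cyp4a14, Pdk4, Fgf21 and the thioesterases, are used as readouts of the receptor in rodents.

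The DNA upstream of these genes is shown for the members in which the receptor's recognition letters were found, because it is through such letters that PPAR alpha binds. RefSeq (GRCm38.p6) gave the 250 bases before the transcription start for 27 of the 34 measured members. Each window was searched on both strands for the direct repeat AGGNCANAGGNCA, with 1 base between its repeats, and for the single half-site AGGTCA, which can overlap the repeat. The direct repeat was found in 1 member, Fabp1 (3.7% of the 27), against 0.4% of all 27025 genes with a window and 0.338% of all windows. The half-site was found in 8 members (29.6%), against 15.8% of all genes and 14% of windows. Capitals below mark the motif as read along the strand of the gene, so that TGACCT is AGGTCA on the other strand. The Fabp1 repeat lies 67 to 55 bases before the start and holds a half-site within it. Another Fabp1 half-site, not printed below, lies 9 to 4 bases before the start.
Fabp1 (chr6:71199797-71199839, plus strand): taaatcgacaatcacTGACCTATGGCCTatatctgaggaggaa
Creb3l3 (chr10:81092773-81092808, minus strand): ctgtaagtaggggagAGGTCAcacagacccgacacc
Cd36 (chr5:17836104-17836139, minus strand): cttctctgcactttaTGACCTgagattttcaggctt
Cpt1a (chr19:3323192-3323227, plus strand): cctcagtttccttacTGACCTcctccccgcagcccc
Acadvl (chr11:70015495-70015530, minus strand): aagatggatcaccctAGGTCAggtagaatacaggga
Acadm (chr3:153944872-153944893, minus strand): gTGACCTtcgggctccggtgac
Plin2 (chr4:86670257-86670292, minus strand): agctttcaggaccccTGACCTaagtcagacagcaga
Plin5 (chr17:56117698-56117733, minus strand): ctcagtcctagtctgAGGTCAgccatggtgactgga
A match is a description of these letters and no measure of binding, and a window without a match says only that the letters are not within those 250 bases.

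Levels are the deposited log2 values, so that a difference of 1 is a doubling, and the medians of the 12 arrays ranged from 7.47 to 7.53. Replicate arrays of a group had correlations across genes of 0.984 to 0.990, and the arrays of 1 preparation at different days had correlations of 0.963 to 0.986. Albumin, the main plasma protein of hepatocytes, stood at a mean of 12.73 at day 1 and 12.74 at day 14, and the nuclear receptor gene Hnf4a at 11.37 and 11.22, while Cyp2e1 at 5.57 and 4.41 was low. Other cells were present, and their part in the results was not tested: 8 of 13 measured markers of stellate cells and fibroblasts and 5 of 9 of endothelial cells were lower at day 14 than at day 1. Mean levels of the stellate list ran from 6.98 to 7.14 over the day 1 arrays and from 4.22 to 6.72 over the day 14 arrays, and those of the endothelial list from 5.45 to 6.27 and from 3.81 to 5.41. Those of 14 macrophage markers ran from 4.37 to 5.44 at day 1 and from 5.14 to 7.09 at day 14, with Csf1r called higher, and of 4 bile duct markers Krt19 and Epcam were called higher, while Krt7 (-0.56) and Sox9 (-0.22) were not called. The hepatocyte list of 12 genes lay between 10.28 and 10.64 at day 1 and between 10.08 and 10.82 at day 14, with 0 called by limma and 1 at an unadjusted p under 0.05. In such bulk samples fewer cells of a type and less RNA per cell cannot be told apart.

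Most of these genes were higher later in the culture. At day 14, 22 of the 34 (64.7%) were called higher than at day 1 and 1, Fgf21, was called lower, where a call is an adjusted p under 0.05 from limma over all 11861 genes. Among all genes 7.59% were called higher and 6.8% lower. Because the members were chosen with earlier results known, their shares were not tested against those of all genes. Of the 22, Cyp4a10 and Cidec lay under 4.79, the level that every probe set in the table reaches on at least 1 array, on all 4 day 1 arrays, so they entered the table through later arrays where they were high. Among the 31 members never under that level 20 were called higher and 1 lower. At day 7, 13 members (38.2%) were called higher than at day 1 and 0 lower, also 0 lower at an unadjusted p under 0.05, against 2.74% and 1.98% of all genes. The median change of the members was 0.31 at day 7 and 0.38 at day 14, beside medians of -0.00035 and 0.00695 over all genes. Both comparisons use the same day 1 arrays, so they are not independent of each other.

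The direction was shared by the preparations, while the calls of single genes rested on few arrays. The median change of the 34 genes from day 1 to day 14 was 0.23 in male 1, 0.30 in male 2, 0.48 in female 1 and 0.41 in female 2. All 4 day 14 values lay above all 4 day 1 values for 18 members (52.9%, against 8.25% of all genes), and 26 members were higher in each preparation (76.5%, against 18.1%). For day 7 these counts were 14 members (against 5.24% of all genes) and 26 members (against 15%). Cyp4a10 and Cidec, which entered the table through later arrays, are among the 18 and among the 26 of either day. When 1 preparation was left out, fewer members were called higher at day 14 and at day 7, and fewer of all genes were too. The same 4 preparations were sampled on each day. With the preparation as a block 20 members were called higher at day 14 and 7 at day 7, and 0 lower. Of all genes 7.55% and 2.75% were called higher in that fit, and 764 and 234 genes lower. Without the block 22 and 13 members were called higher, and 7.59% and 2.74% of all genes. The 6 members called at day 14 in each of the 4 fits with a preparation left out were Acot1, Acot2, Vnn1, Cd36, Cpt1a and Cidec, of which Cidec entered the table through its higher later arrays.

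**Figure D1:**
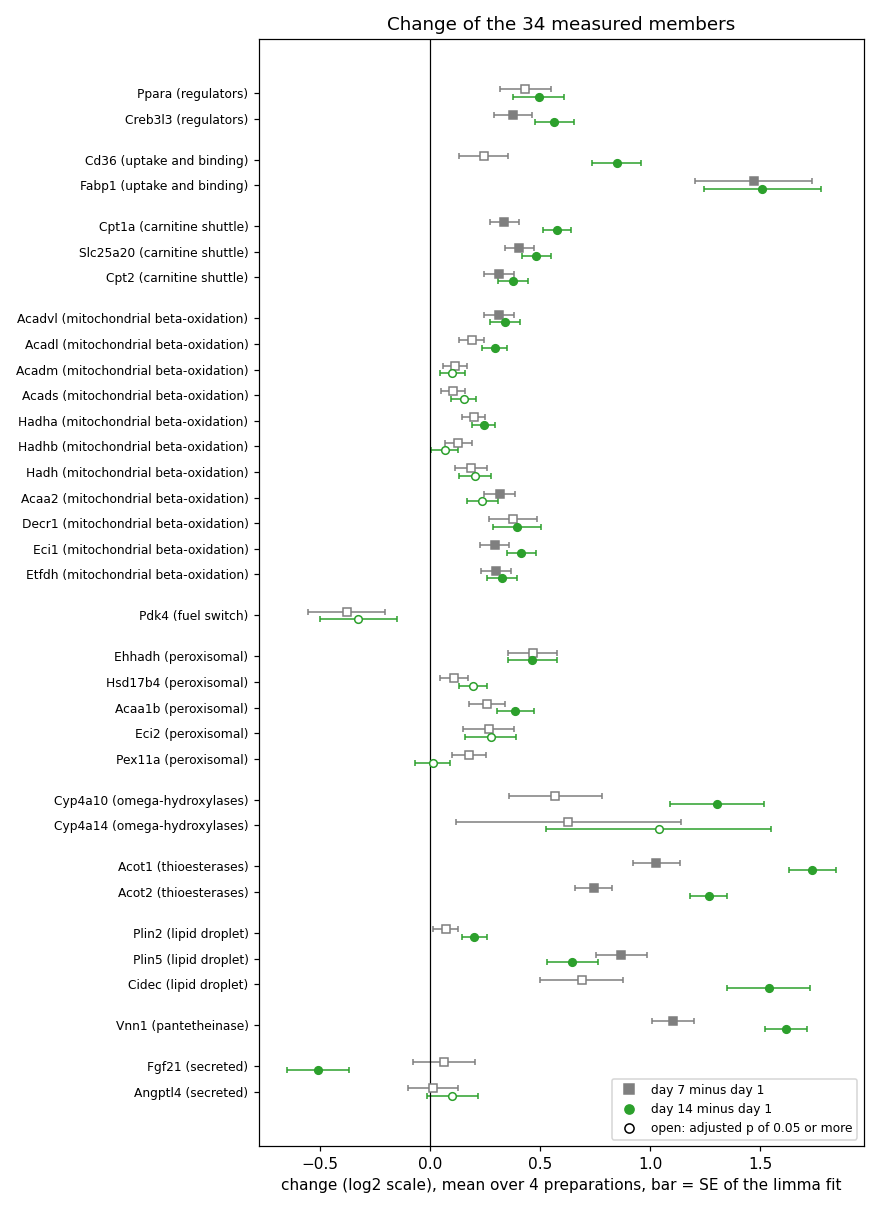
Change of each measured member from day 1 to day 7 (grey squares) and to day 14 (green circles) on the log2 scale, as the mean over 4 preparations with the standard error of the limma fit, grouped by role. Filled symbols have an adjusted p under 0.05, which 13 genes reached at day 7 and 23 at day 14. The thioesterases Acot1 and Acot2, Vnn1, Fabp1, Cidec and Cyp4a10 lie farthest to the right at day 14, and Fgf21 is the filled symbol below 0.

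Both regulators were higher at day 14. Levels are given in the order male 1, male 2, female 1, female 2 here and in all that follows. Ppara, the receptor itself, stood at 7.62, 7.77, 7.97 and 7.51 at day 1, at 8.02, 8.11, 8.39 and 8.09 at day 7 and at 7.92, 8.07, 8.36 and 8.48 at day 14. Each preparation was higher at both later days than at day 1, and the day 7 levels did not overlap those of day 1, while the lowest day 14 level lay under the highest day 1 level. The change was 0.49 ± 0.11 at day 14 (adjusted p = 0.0230), and it did not pass at day 7 (0.43 ± 0.11, adjusted p = 0.0727). Without male 1, male 2 or female 2 the day 14 call of Ppara was lost, at an adjusted p of up to 0.178.

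Creb3l3 encodes CREBH, a factor held in the endoplasmic reticulum that is released in fasting and acts with PPAR alpha on shared targets. It stood at 9.46, 9.78, 10.09 and 10.12 at day 1, at 10.15, 10.05, 10.30 and 10.47 at day 7 and at 10.23, 10.41, 10.55 and 10.52 at day 14. All day 14 levels lay above all day 1 levels, and the males began lower. Creb3l3 rose by 0.56 ± 0.09 to day 14 (adjusted p = 0.00449) and by 0.38 ± 0.09 to day 7 (adjusted p = 0.0486). The day 14 call was lost without female 1 or female 2 (adjusted p up to 0.0611), and the day 7 call without any 1 of the preparations (0.103 to 0.299) and with the preparation as a block (0.0608).

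**Figure D2:**
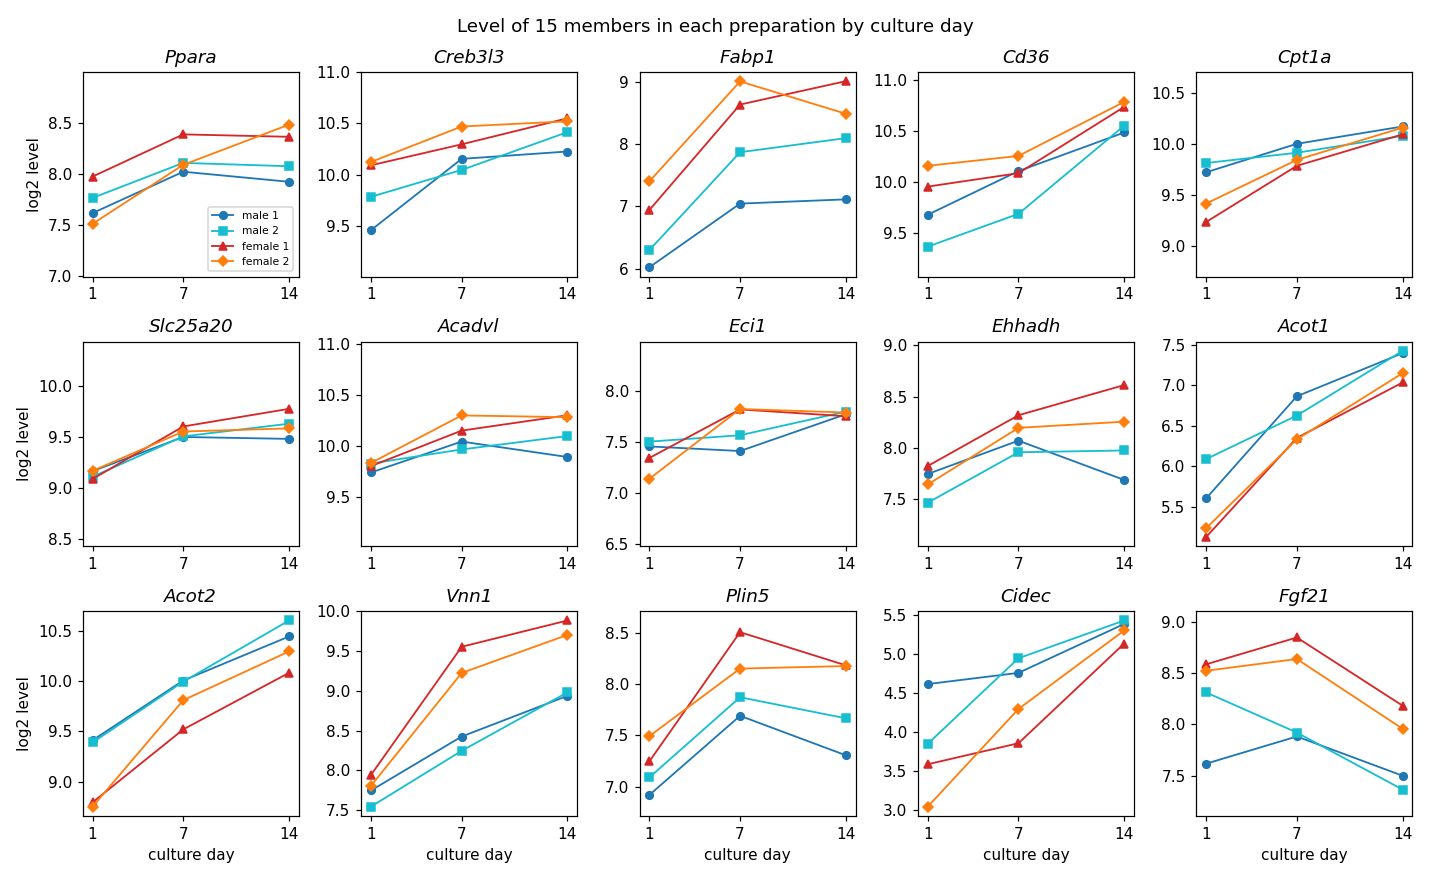
Log2 level of 15 members at culture days 1, 7 and 14, with 1 line per preparation (blue and cyan for the 2 male pools, red and orange for the 2 female pools). The vertical spans differ between panels. Creb3l3, Cd36, Cpt1a, Acot1, Acot2, Vnn1 and Cidec are higher at each later day in each preparation. Plin5 is highest at day 7 in 3 of the 4, and Fgf21 ends lower than it began in all 4.

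Both measured genes of fatty acid uptake and binding rose by day 14. Fabp1, the main cytosolic fatty acid carrier of hepatocytes and the gene with the direct repeat printed above, stood at 6.02, 6.30, 6.94 and 7.40 at day 1, at 7.04, 7.87, 8.63 and 9.0 at day 7 and at 7.11, 8.09, 9.01 and 8.49 at day 14. Each preparation rose, by different amounts and from different starts, so that male 1 at day 14 was still under female 2 at day 1. The rise was 1.47 ± 0.27 at day 7 (2.77-fold, adjusted p = 0.0205) and 1.51 ± 0.27 at day 14 (2.84-fold, adjusted p = 0.00744), with 0.04 ± 0.27 between those days. The day 14 call was lost without female 1 (adjusted p = 0.0947), and the day 7 call without any 1 of the 4 (0.0701 to 0.129).

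Cd36, a scavenger receptor that brings long-chain fatty acids into cells, was called at day 14 and not at day 7. Its levels were 9.68, 9.37, 9.96 and 10.16 at day 1, 10.11, 9.69, 10.09 and 10.26 at day 7 and 10.49, 10.55, 10.74 and 10.79 at day 14. The day 14 levels lay above all earlier ones, and the day 7 levels overlapped those of day 1. The change was 0.24 ± 0.11 at day 7 (adjusted p = 0.275) and 0.85 ± 0.11 at day 14 (1.80-fold, adjusted p = 0.00211). Macrophages and endothelial cells also carry Cd36, and the macrophage gene Csf1r rose by 1.21 over the same days while the endothelial gene Cdh5 fell by 2.40. Their part in the rise of Cd36 was not tested.

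All 3 genes of the carnitine shuttle rose at day 7 and at day 14. Cpt1a makes acylcarnitine at the outer mitochondrial membrane and is the controlled step of the pathway. Its levels were 9.72, 9.81, 9.24 and 9.42 at day 1, 10.00, 9.91, 9.78 and 9.84 at day 7 and 10.17, 10.08, 10.09 and 10.16 at day 14. The preparations were spread at day 1 and lay close together at day 14 (SD 0.27 and 0.05), since both female pools began lower. Cpt1a rose by 0.34 ± 0.06 (adjusted p = 0.0258) and 0.58 ± 0.06 (1.49-fold, adjusted p = 0.00105), and its day 7 call was lost without any 1 of the preparations (0.117 to 0.275).

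Slc25a20, the translocase that carries acylcarnitine inward, was at 9.16, 9.11, 9.09 and 9.17 at day 1, at 9.50, 9.50, 9.60 and 9.55 at day 7 and at 9.48, 9.63, 9.77 and 9.58 at day 14. There was no overlap between day 1 and either later day, and each day's 4 levels lay close together. It amounted to 0.41 ± 0.07 at day 7 (adjusted p = 0.0145) and 0.48 ± 0.07 at day 14 (adjusted p = 0.00247). Cpt2, which returns the chain to coenzyme A inside, went from 8.78, 8.80, 8.84 and 8.92 to 9.11, 9.11, 9.14 and 9.24 at day 7 and 9.21, 9.19, 9.36 and 9.09 at day 14. It rose by 0.31 ± 0.07 (adjusted p = 0.0406) and 0.38 ± 0.07 (adjusted p = 0.00895), again without overlap with day 1. The day 14 call of Slc25a20 was lost without male 2 (adjusted p = 0.0647) and that of Cpt2 without male 1, male 2 or female 1 (up to 0.134). The day 7 calls of both were lost without any 1 preparation (0.0886 to 0.174 for Slc25a20, 0.110 to 0.315 for Cpt2), and that of Cpt2 with the block (0.0733).

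All 11 genes of the mitochondrial beta-oxidation spiral had changes above 0 at both days, most of them small. At day 14, 6 of the 11 were called higher, with a median change of 0.24 over the group, and at day 7, 4 of the 11. Along chain length, the very long-chain dehydrogenase Acadvl rose by 0.34 ± 0.07 (adjusted p = 0.0127) and the long-chain Acadl by 0.29 ± 0.06 (0.0112) from day 1 to day 14. The medium-chain Acadm (0.10 ± 0.06, adjusted p = 0.281) and the short-chain Acads (0.15 ± 0.05, 0.104) did not pass. Acadvl stood at 9.74, 9.83, 9.80 and 9.83 at day 1, at 10.04, 9.97, 10.15 and 10.30 at day 7 and at 9.89, 10.10, 10.30 and 10.28 at day 14, with no overlap between day 1 and the later days. Acadm by contrast ran from 9.53 to 9.64 at day 1, from 9.63 to 9.80 at day 7 and from 9.56 to 9.77 at day 14, and these ranges overlapped. Whether the dehydrogenases differ from each other in their change was not tested.

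Of the trifunctional protein, which carries out the next steps on long chains, 1 subunit gene was called. Its alpha subunit gene Hadha went from 10.59, 10.57, 10.63 and 10.70 at day 1 to 10.77, 10.79, 10.97 and 10.93 at day 14, a rise of 0.24 ± 0.05 (adjusted p = 0.0165). The beta subunit gene Hadhb changed by 0.07 ± 0.06 (adjusted p = 0.546), since it was slightly lower in both male pools and higher in both female pools. Hadh, the hydroxyacyl-CoA dehydrogenase of shorter chains, changed by 0.20 ± 0.07 (adjusted p = 0.0946). The thiolase gene Acaa2 passed at day 7 only, with 0.32 ± 0.07 (adjusted p = 0.0440) against 0.24 ± 0.07 at day 14 (0.0585).

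The auxiliary enzymes that handle double bonds, and the electron carrier of the pathway, also rose. Eci1, an enoyl-CoA isomerase, ran from 7.14 to 7.50 at day 1 and from 7.75 to 7.80 at day 14, a rise of 0.42 ± 0.07 (adjusted p = 0.00474) after which the 4 preparations lay almost together. Decr1, the dienoyl-CoA reductase, ran from 8.06 to 8.13 and from 8.38 to 8.70, a rise of 0.40 ± 0.11 (adjusted p = 0.0447). Etfdh, which passes electrons of beta-oxidation to ubiquinone, rose by 0.33 ± 0.07 (adjusted p = 0.0150), with day 1 levels of 9.76 to 9.90 and day 14 levels of 10.06 to 10.29. These ranges did not overlap between the 2 days for any of the 3 genes.

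Most calls in the spiral were lost when arrays were left out. At day 14, Acadvl (adjusted p 0.0839 to 0.112), Acadl (0.0800 to 0.124), Hadha (0.0998 to 0.163) and Etfdh (0.0557 to 0.162) were lost without any 1 preparation. Decr1 was lost without male 1 or male 2 (up to 0.269) and with the block (0.0745), and Eci1 without male 1, male 2 or female 2 (up to 0.0796). The day 7 calls of Acadvl, Acaa2, Eci1 and Etfdh were lost without any 1 preparation (0.0925 to 0.307 over the 4 genes) and with the block (0.0582, 0.0774, 0.0609 and 0.0554 in that order).

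Pdk4, the kinase that shuts pyruvate dehydrogenase and so spares glucose when fat is burned, is a PPAR alpha target in rodents and was not called. It stood at 6.76, 6.84, 6.77 and 6.34 at day 1, at 6.16, 5.92, 6.20 and 6.93 at day 7 and at 6.24, 6.11, 6.74 and 6.32 at day 14. The 2 male pools were lower at both later days than at day 1, female 1 was lower at day 7 and close to its start at day 14, and female 2 was highest at day 7. The change was -0.38 ± 0.18 at day 7 (adjusted p = 0.280) and -0.32 ± 0.18 at day 14 (0.269), and days overlapped.

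Of the 5 peroxisomal members 2 were called higher at day 14 and 0 at day 7 by limma. At day 7, 3 had an unadjusted p under 0.05, where 19.5% of all genes had such a p in either direction. Ehhadh, the bifunctional hydratase and dehydrogenase of the inducible peroxisomal pathway, stood at 7.74, 7.46, 7.82 and 7.64 at day 1, at 8.07, 7.96, 8.32 and 8.19 at day 7 and at 7.69, 7.97, 8.61 and 8.25 at day 14. All day 7 levels lay above all day 1 levels, and male 1 had returned to its day 1 level at day 14. The change was 0.47 ± 0.11 at day 7 (adjusted p = 0.0544) and 0.46 ± 0.11 at day 14 (adjusted p = 0.0271). Acaa1b, a peroxisomal thiolase, went from 7.62, 7.47, 7.44 and 7.76 at day 1 to 7.97, 7.91, 8.01 and 7.95 at day 14 without overlap, a rise of 0.39 ± 0.08 (adjusted p = 0.0172). Its near-identical neighbour Acaa1a changed by 0.11 (adjusted p = 0.507), and a probe set of one may read the other.

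Hsd17b4, the bifunctional enzyme of the other peroxisomal branch, changed by 0.20 ± 0.06 at day 14 (adjusted p = 0.0761). Eci2, a peroxisomal isomerase, changed by 0.28 ± 0.12 (0.160), and Pex11a, which drives the division of peroxisomes, by 0.01 ± 0.08 (0.943). None of these passed. The call of Ehhadh was lost without any 1 preparation (adjusted p 0.0759 to 0.241) and that of Acaa1b without male 1, male 2 or female 1 (up to 0.151).

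The omega-hydroxylase genes lay near the bottom of the scale. Cyp4a10 and Cyp4a14 lay under 4.79 on 8 of the 12 arrays each, so that they entered the table through their higher arrays. For both genes these were later arrays, and for Cyp4a14 they were from female pools only. A gene that enters in this manner had to differ, and its fold may be understated, so these values are a description. Cyp4a10, a widely used PPAR alpha readout, stood at 3.73, 3.87, 3.84 and 3.10 at day 1, at 3.85, 4.12, 3.99 and 4.85 at day 7 and at 4.65, 4.90, 5.13 and 5.06 at day 14. Day 14 did not overlap day 1, and the change was 1.30 ± 0.21 (2.47-fold). The adjusted p of 0.00537 carries that selection, and the call was lost without male 1 or male 2 (up to 0.0855). Cyp4a14 stood at 3.40, 3.13, 4.72 and 4.78 at day 1, at 2.86, 4.25, 4.83 and 6.60 at day 7 and at 3.02, 4.64, 6.78 and 5.73 at day 14. It was higher at day 14 in male 2 and both female pools and lower in male 1, and its change of 1.04 ± 0.51 did not pass (adjusted p = 0.224).

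These genes sit in a cluster of near-identical copies on chromosome 4, so that a probe set of one may read a neighbour and the single genes are uncertain. In the RefSeq order of the measured genes, the changes from day 1 to day 14 were 0.50 for Cyp4a12a (adjusted p = 0.153), 0.90 for Cyp4a12b (0.0199), 1.04 for Cyp4a14, 1.30 for Cyp4a10, 1.49 for Cyp4a31 (0.00105) and 1.34 for Cyp4a32 (0.0136). All 6 lay above 0 and 4 passed, of which Cyp4a31 alone was never under 4.79. The neighbours were chosen by position, after the values of the 2 members were known.

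The acyl-CoA thioesterases Acot1 and Acot2, which release free fatty acids from coenzyme A in the cytosol and in mitochondria in that order, rose at both later days. Acot1 stood at 5.61, 6.09, 5.13 and 5.24 at day 1, at 6.86, 6.63, 6.35 and 6.33 at day 7 and at 7.40, 7.43, 7.03 and 7.15 at day 14. Acot2 stood at 9.41, 9.39, 8.80 and 8.76, then at 10.01, 9.99, 9.52 and 9.81, then at 10.44, 10.60, 10.08 and 10.29. For both genes the 3 days did not overlap at all, and the male pools lay above the female pools at every day.

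Acot1 rose by 1.03 ± 0.11 to day 7 (2.04-fold, adjusted p = 0.00288) and by 1.74 ± 0.11 to day 14 (3.33-fold, adjusted p = 7.51e-05). Acot2 rose by 0.74 ± 0.08 (1.67-fold, adjusted p = 0.00353) and 1.27 ± 0.08 (2.40-fold, adjusted p = 9.23e-05). The day 14 calls were kept with any 1 preparation left out, at an adjusted p of at most 0.00850 for Acot1 and 0.00987 for Acot2. The day 7 call of Acot1 was lost without female 1 or female 2 (up to 0.0650) and that of Acot2 without male 1 or male 2 (up to 0.0914).

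Acot1 and Acot2 are adjacent on chromosome 12, in a cluster of related thioesterase genes whose probe sets may read each other. In RefSeq order the changes to day 14 were 1.27 for Acot2, 1.74 for Acot1, 0.60 for Acot4 (adjusted p = 0.0199), 1.13 for Acot3 (0.0295) and -0.11 for Acot6 (0.686), while Acot5 had no named probe set among those used here. Besides the 2 members, 2 of the 3 other measured genes of the row rose, of which Acot3 was under 4.79 on 4 arrays, and Acot6 did not pass. The row was looked at after the values of Acot1 and Acot2 were known. The 250 bases before the starts of Acot1 and Acot2 are printed because these 2 adjacent genes rose at both later days without overlap between any 2 days. Among the members Acadl also had no overlap between any 2 days, with smaller changes. Neither printed window holds AGGTCA or the direct repeat on either strand.
Acot1 (chr12:84009252-84009501, plus strand): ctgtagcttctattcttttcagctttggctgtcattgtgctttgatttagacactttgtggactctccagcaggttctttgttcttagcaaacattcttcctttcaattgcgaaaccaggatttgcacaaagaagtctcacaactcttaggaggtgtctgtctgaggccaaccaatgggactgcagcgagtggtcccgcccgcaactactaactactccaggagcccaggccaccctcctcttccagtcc
Acot2 (chr12:83987611-83987860, plus strand): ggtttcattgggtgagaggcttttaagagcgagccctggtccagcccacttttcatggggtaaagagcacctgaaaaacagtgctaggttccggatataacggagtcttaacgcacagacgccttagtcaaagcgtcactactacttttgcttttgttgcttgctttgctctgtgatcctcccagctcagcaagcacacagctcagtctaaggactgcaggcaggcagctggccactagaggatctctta

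All 3 lipid droplet proteins rose at day 14, by very different amounts. Cidec, which fuses lipid droplets and marks fatty liver, stood at 4.61, 3.85, 3.58 and 3.04 at day 1, at 4.75, 4.94, 3.85 and 4.29 at day 7 and at 5.38, 5.42, 5.13 and 5.30 at day 14. It was higher at each later day in each preparation and day 14 lay above all earlier values, a rise of 1.54 ± 0.19 (2.90-fold, adjusted p = 0.00145), beside 0.69 ± 0.19 at day 7 (0.0824). It was under 4.79 on 7 of the 12 arrays, all 4 of day 1 among them, so it entered the table through later arrays and had to differ, and its fold may be understated. Cidec is also made by adipocytes. The adipocyte genes Adipoq, Lep and Plin1 had no named probe set among those used here, Fabp4 fell by 0.99 and Cidea by 0.86, and Pparg rose by 0.61 and Lpl by 0.90. The part of such cells was not tested.

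Plin5, which tethers droplets to mitochondria in oxidative cells, had its highest mean at day 7. It stood at 6.92, 7.09, 7.25 and 7.49 at day 1, at 7.69, 7.87, 8.51 and 8.15 at day 7 and at 7.31, 7.67, 8.18 and 8.18 at day 14. Day 7 did not overlap day 1, and day 14 did. The rise was 0.87 ± 0.12 at day 7 (1.83-fold, adjusted p = 0.00706) and 0.65 ± 0.12 at day 14 (1.57-fold, adjusted p = 0.00790), and the step of -0.22 ± 0.12 between those days did not pass (0.450). The day 14 call was lost without male 1, male 2 or female 1 (adjusted p up to 0.0731) and the day 7 call without any 1 preparation (0.0521 to 0.0843).

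Plin2, the general coat protein of hepatocyte droplets, was already high and rose by a small step. It went from 11.45, 11.43, 11.42 and 11.40 at day 1 to 11.53, 11.53, 11.49 and 11.44 at day 7 and 11.56, 11.69, 11.69 and 11.57 at day 14. The replicates were close enough for the rise of 0.20 ± 0.06 at day 14 to pass (adjusted p = 0.0483), with no overlap with day 1. The call was lost without any 1 preparation (0.161 to 0.321) and with the block (0.0702).

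Vnn1, a pantetheinase that splits pantetheine and is induced by PPAR alpha in the fasted liver, had the largest day 14 rise after Acot1. It stood at 7.75, 7.54, 7.94 and 7.80 at day 1, at 8.42, 8.24, 9.55 and 9.22 at day 7 and at 8.94, 8.98, 9.88 and 9.70 at day 14. Both later days lay above day 1 without overlap, and at day 7 both female pools lay above both male pools by more than at day 1. Vnn1 rose by 1.10 ± 0.10 to day 7 (2.15-fold, adjusted p = 0.00219) and by 1.62 ± 0.10 to day 14 (3.07-fold, adjusted p = 7.51e-05). The day 14 call was kept with any 1 preparation left out (at most 0.00743), and the day 7 call was lost without male 1 (0.0539).

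Of the 2 secreted members 1 was called, and it was lower. Fgf21, a fasting hormone of the liver, stood at 7.62, 8.31, 8.59 and 8.52 at day 1, at 7.88, 7.92, 8.85 and 8.64 at day 7 and at 7.50, 7.36, 8.18 and 7.96 at day 14. Every preparation was lower at day 14 than at day 1 and at day 7, though the days overlapped since male 1 began low. Fgf21 fell by 0.51 ± 0.14 from day 1 to day 14 (adjusted p = 0.0448), and its day 7 change was 0.06 ± 0.14. The call was lost without male 2, female 1 or female 2 (up to 0.228) and with the block (0.0512). Angptl4, an inhibitor of lipoprotein lipase that PPARs induce, ran from 10.85 to 11.06 at day 1 and from 10.87 to 11.31 at day 14, and its change of 0.10 ± 0.11 did not pass (0.624).

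Between day 7 and day 14 the members had a median change of 0.06, 27 of 34 lay above 0, and 2 were called higher and 0 lower, against 0.304% and 0.185% of all genes. At an unadjusted p under 0.05, 7 were higher and 1 lower, where 13.7% of all genes had such a p in either direction. Those called were Acot1 (0.71 ± 0.11, adjusted p = 0.0331) and Acot2 (0.52 ± 0.08, 0.0422). Larger but more variable steps did not pass, among them Cidec (0.85 ± 0.19, 0.102) and Cyp4a10 (0.73 ± 0.21, 0.175), nor did Cd36 (0.60 ± 0.11, 0.0631), Vnn1 (0.51 ± 0.10, 0.0644) and Fgf21 (-0.57 ± 0.14, 0.131). The 2 calls were lost without any 1 preparation (0.126 to 0.228 for Acot1, 0.141 to 0.317 for Acot2). With the preparation as a block Acot1 was lost (0.0546), and Cd36 (0.0470) and Vnn1 (0.0409) were called beside Acot2.

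Over all days none of the 34 genes was called different between the sexes by limma on the 4 preparation means, 2 against 2, where 0.0927% of all genes were called higher in males and 0.0843% lower. At an unadjusted p under 0.05, 4 members were higher in males and 12 lower, where 19.8% of all genes had such a p in either direction, and the median difference was -0.12. The thioesterases and Cidec had the highest male values: the male mean exceeded the female mean by 0.46 ± 0.07 for Acot1 (adjusted p = 0.0885), by 0.43 ± 0.08 for Acot2 (0.104) and by 0.63 ± 0.08 for Cidec (0.0753). At each of the 3 days both male pools lay above both female pools for these genes.

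On the female side, male minus female was -2.02 ± 0.32 for Cyp4a14 (adjusted p = 0.0916), -1.17 ± 0.24 for Fabp1 (0.118), -0.71 ± 0.10 for Vnn1 (0.0805), -0.69 ± 0.10 for Fgf21 (0.0888) and -0.54 ± 0.10 for Plin5 (0.105). At each day both female pools lay above both male pools for these 5 genes. Of these, Cyp4a14 was under 4.79 on every male array. It entered the table through female arrays and had to differ, so its sex values are a description. Beside these 5 genes, Cyp4a12a, a hydroxylase that male mice make, was called higher in males (2.57 ± 0.18, adjusted p = 0.0423), with means of 6.05 in males and 3.47 in females. Abcd2, a peroxisomal transporter of very long-chain acyl-CoA, was called lower in males (-2.52 ± 0.15, adjusted p = 0.0397), with means of 4.14 and 6.67. Neither is one of the 35 genes, and both were under 4.79 in the mean of the lower sex, so that they entered the table through the other sex. Over the same arrays all 13 stellate and all 9 endothelial markers were lower on average in males, with median differences of -0.64 and -0.87, and their part in the sex values was not tested.

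No sex difference in a day change was called, for any member or any gene (0% of all genes in each of the 3 day comparisons). At an unadjusted p under 0.05 limma gave 3 members for day 7 against day 1, 2 for day 14 against day 1 and 1 for day 14 against day 7, where 4.76%, 6.87% and 4.09% of all genes had such a p, so these counts are near the background. With its sign kept, the change from day 1 to day 14 was higher in females than in males for 28 of the 34 members, against 51.8% of all genes, and from day 1 to day 7 for 24. The 28 include Pdk4 and Fgf21, whose changes were further below 0 in males. In the same comparison the male change minus the female change had a median of -2.01 over the 13 stellate markers, with 8 lower at an unadjusted p under 0.05, and of -0.79 over the 9 endothelial markers, all below 0. Their part in the sex difference was not tested. The male change was smaller by 0.44 ± 0.13 for Cpt1a, with changes of 0.36 in males and 0.80 in females (adjusted p of the difference 0.426), and by 0.61 ± 0.19 for Vnn1, with 1.31 and 1.92 (0.468). For Eci1 at day 7 the changes were 0.01 in males and 0.58 in females (0.790). For Cpt1a the female pools started lower and ended level with the male pools, while for Vnn1 they started near them and ended higher.

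**Figure D3:**
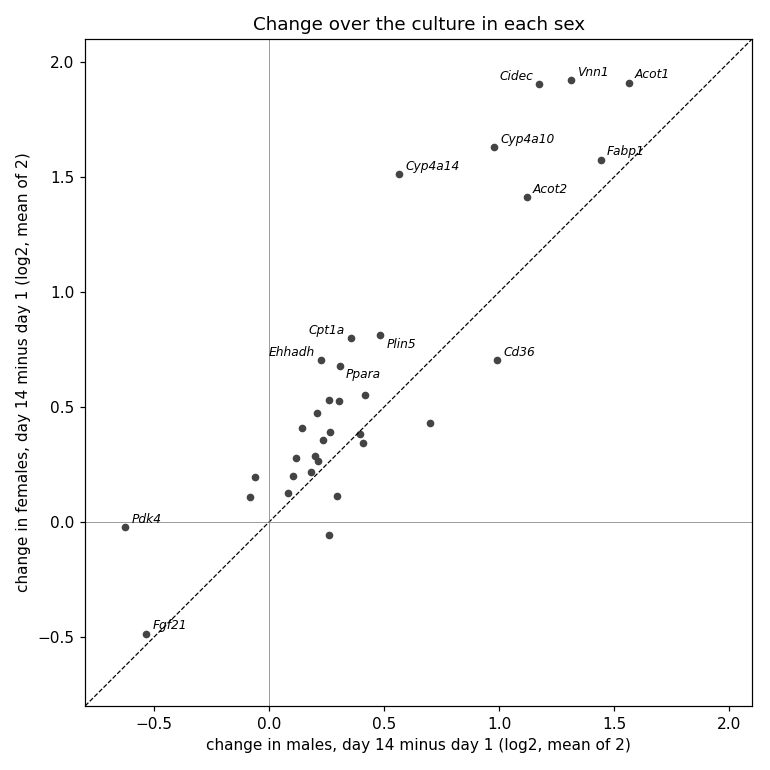
Change from day 1 to day 14 of each of the 34 members in males (horizontal) and females (vertical), on the log2 scale, each the mean of 2 preparations. The dashed line marks equal change. Of the 34 points, 28 lie above it, with Cyp4a14, Cidec, Cyp4a10 and Vnn1 among those farthest from it. No single difference passed the test.

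Other genes of the same roles were taken from lists of the pathway. From day 1 to day 14, 5 of 26 other genes of mitochondrial oxidation and carnitine handling were called higher and 0 lower by limma (10 and 1 at an unadjusted p under 0.05), among them Cpt1c (0.70), a relative of Cpt1a found in the endoplasmic reticulum, Slc22a5 (0.65), the carnitine transporter of the cell membrane, and the dienoyl-CoA isomerase Ech1 (0.60). Of 28 other peroxisomal genes 4 were called higher and 0 lower (7 and 1 at an unadjusted p under 0.05), with Crot (0.54), which makes acylcarnitine in peroxisomes, Pecr (0.33) and Acox3 (0.31) the largest. In this comparison 28.6% of all genes had such an unadjusted p in either direction, beside 11 of the 26 and 8 of the 28. The peroxisomal count is thus near the background. Of all genes 7.59% were called higher and 6.8% lower. The median changes of the mitochondrial and the peroxisomal list were 0.15 and 0.12, beside 0.38 for the members. These gene lists and the members were not tested against each other.

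Of 5 measured genes on the list for ketone bodies, the monocarboxylate carrier Slc16a7 rose by 0.35 and Slc16a6 fell by 0.29. Of 12 other thioesterase genes 2 rose, both in the chromosome 12 cluster, and Acot7 fell by 0.25. Of 21 other lipid droplet and lipolysis genes 1 rose, Cideb (0.31), and 3 fell, Cidea by 0.86, Hilpda by 0.71 and Lpin2 by 0.42. A list of 22 genes joined uptake, binding and activation with omega-oxidation. Of its 6 genes of the Cyp4 family 3 rose, all in the chromosome 4 cluster given above, with Cyp4a31 (1.49) and Cyp4a32 (1.34) the largest. Of the other 16 genes 5 rose and 2 fell, with the acyl-CoA synthetase Acsl6 (1.17) the largest, which was under 4.79 on 6 arrays.

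The receptors and coregulators around PPAR alpha did not move in 1 direction. Of 20 measured, 3 rose and 5 fell from day 1 to day 14, with a median of -0.10. Pparg, the related receptor that drives lipid storage, rose by 0.61 ± 0.12 (adjusted p = 0.0117) and Rxra, the partner of PPAR alpha, by 0.22 (0.0371), after 0.32 at day 7 (0.0216). The lysosomal and fasting regulator Tfeb fell by 0.45 (0.0259) and Stat5b, which carries the growth hormone signal, by 0.36 (0.0195). The coactivator gene Ppargc1a did not pass (adjusted p = 0.385), and neither did Hnf4a (-0.15, 0.120).

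**Figure D4:**
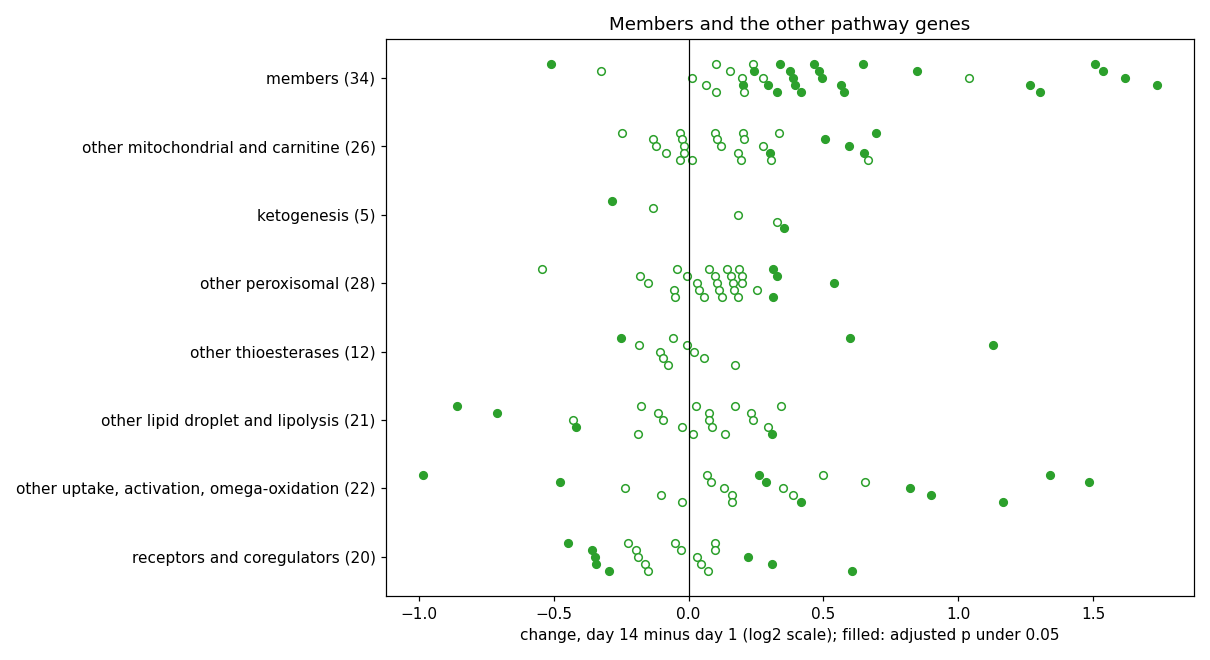
Change from day 1 to day 14 on the log2 scale for the 34 members and for the genes of 7 other lists of the pathway, 1 point per gene, with the number measured in parentheses and filled points for an adjusted p under 0.05. The members lie almost all to the right of 0, and the other lists spread on both sides to different degrees. Above 0 lay 17 of 22 uptake, 21 of 28 peroxisomal, 17 of 26 mitochondrial and 12 of 21 lipid droplet genes. The same held for 3 of 5 ketone body, 5 of 12 thioesterase and 8 of 20 receptor and coregulator genes. Members and lists were chosen with earlier results of these data known.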

How the data were processed

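The values are log2 levels, 1 per probe set and array, as deposited by the authors. Per the submitters' processing notes they came from RMA, Transcriptome Analysis Console 4.0 and Partek 7.0, with no order of steps, array build or filter given in the sources used here. Every one of the 13081 probe sets reached 4.79 on at least 1 array. Of these 11889 had 1 symbol in the platform annotation, 1192 had none and 0 had several; the probe set with the highest mean was kept per symbol, which left 11861 genes. All matched RefSeq (GRCm38.p6). No column of sample values was left unused.

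Tests used limma 3.58.1 in R 4.3.3: 1 mean per group of sex and day over all 12 arrays, day contrasts averaged over the sexes, two-sided, with Benjamini-Hochberg adjustment over all genes and a threshold of 0.05. Sex over all days used the 4 preparation means. A change is given ± the fit's standard error. Since preparations are pools, p-values measure how pools vary, not single mice. Precision is limited by the 12 arrays. The labels give each preparation a number that recurs at all 3 days, so the numbers pair the samples; deviations of the same preparation from its group mean correlated across genes at 0.0359 to 0.224 in males and 0.0657 to 0.324 in females. The script was tested on simulated data. The members and the gene lists were chosen with earlier results of these data known. Any member could be named; from other lists the up to 3 largest that passed were named, with Acaa1a, Pparg, Ppargc1a, Rxra and Hnf4a always. Alternatives were another spread estimate, a second normalization, median centring, a filter at a mean of 6, averaged probe sets, only the 2 days compared, the preparation as a block or random effect, and leaving out each preparation.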

Additional observations from a re-analysis of the deposited data

Results flagged for a closer look

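Among 102 groups of 4 arrays (34 genes on 3 days), 1 array stood apart by Dixon's criterion, which flags about 1 in 20 groups by chance. Pdk4 stood at 6.34 in female 2 at day 1, while the other 3 preparations lay between 6.76 and 6.84. Female 2 was also the only preparation in which Pdk4 was higher at day 7 than at day 1.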

How the results depend on the processing

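With the preparation as a replicate block, 7 members were called higher at day 7 and 0 lower at day 14, against 13 and 1 without it. Of all genes 326 were called higher at day 7 and 764 lower at day 14, against 325 and 806 without it. Beyond the calls given with each gene the block changed no other member call. With a trended and robust estimate of the spread, 5 members were called higher and 1 lower from day 7 to day 14. Of all 11861 genes 152 and 157 were. In males over all days this fit called 2 members higher and 9 lower, beside 416 and 558 of all genes. The main fit had called 11 and 10 of all genes there. Among the 8910 genes with a mean of at least 6, 52 were called higher from day 7 to day 14, 4 members among them. In males 2 members were higher and 3 lower, beside 98 and 184 of these genes. From only the 2 days compared, 0 members were lower at day 14 than at day 1 and 1 was higher at day 14 than at day 7. Of all genes 648 and 14 were. With all 12 arrays and the preparation as a random effect, 2 members were higher and 7 lower in males, beside 393 and 536 of all genes. Some of these fits used fewer genes or arrays, and the cause of these differences was not tested.

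With 1 preparation left out, the members called higher ranged from 1 to 2 at day 7, from 8 to 13 at day 14 and from 0 to 0 between day 7 and day 14, those lower at day 14 ranged from 0 to 1, and the median change at day 7 ran from 0.25 to 0.31. Of the 23 members called at day 14, 6 were called in all 4 such fits and 6 in none, and of the 13 at day 7, 0 and 10. Each such fit has fewer arrays, and no direction was reversed among the 110 member values larger than their own standard error; the other 26 were not followed. A second quantile normalization and median centring of the arrays kept all these directions, and averaged probe sets changed no call. Creb3l3 (0.0563) and Acaa2 (0.0515) lost the day 7 call and Plin2 (0.0545) the day 14 call after centring, and Acaa2 gained the day 14 call (0.0351) after the second normalization.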
